A study of Mus musculus with 16 samples.

Results

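Glutamate is the main fast excitatory transmitter of the brain, and the genes described here encode its receptors and the scaffold proteins that hold them at the postsynaptic membrane. The set was defined by gene symbol, as 33 named genes, and for each gene the probe set of largest mean signal across 16 arrays was taken. Of the 33 genes, 31 had a probe set listed with that gene alone, among 18193 genes measured in all, and Grin1 and Shank2 are not analysed here. The 31 genes had 65 probe sets between them. They comprised 4 AMPA, 5 kainate and 5 NMDA receptor subunits, 1 delta receptor, 6 metabotropic receptors, 4 MAGUK, 3 Homer and 2 Shank scaffolds, and the AMPA receptor auxiliary subunit Cacng2.

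The series measured RNA of whole organs of C57BL/6J mice at postnatal day 7 on Affymetrix arrays. Its 4 groups, with 4 arrays in each, were cerebellum after dexamethasone, cerebellum after vehicle, lung after dexamethasone and lung after vehicle. Dexamethasone is a synthetic agonist of the glucocorticoid receptor, and the series title calls the treatment chronic. No genotype other than the inbred strain is named, and the sources used here do not give dose, schedule or litter. Replicates carry numbers of their own (B39, for example), which no groups share. The replicates are described as biological, and p-values rest on the spread among them, whatever litter they came from.

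AMPA, kainate and NMDA receptors are ion channels built of several subunits, and the subunits present set how fast they open and whether they pass calcium. Metabotropic receptors act through G proteins, on both sides of the synapse. MAGUK proteins bind the tails of the channels, Homer proteins link metabotropic receptors to internal calcium stores, and Shank proteins join these assemblies into the postsynaptic density. In the cerebellum at this age granule neurons are still forming, and parallel fibres and climbing fibres are establishing their glutamate synapses on Purkinje cells. Outside the brain some of these proteins have other duties, among them the role of the scaffold Dlg1 in epithelial polarity.

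Deposited values were log2 signals made by RMA, and a difference of log2 values is the log2 of a fold. They ran from 3.15 to 14.83, with array medians of 5.87 to 6.00. The labels of the tissues fitted their markers: the mean level of 8 general neuronal genes was 11.7 to 12.2 in dexamethasone cerebella and 11.5 to 11.9 in vehicle cerebella, and 5.46 to 5.93 in dexamethasone lungs and 5.34 to 5.65 in vehicle lungs. The mean of 5 genes of alveolar type 2 cells was 13.4 to 13.6 in dexamethasone lungs and 12.8 to 13.2 in vehicle lungs. As a yardstick for probe sets with little or no transcript, 43 probe sets of olfactory receptors were used, whose 95th percentile was 5.08 and 5.01 in dexamethasone and vehicle cerebella and 5.22 and 5.23 in dexamethasone and vehicle lungs. It describes these arrays and is not a detection call. In whole organs, fewer cells of a type and less RNA per cell cannot be told apart.

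Most of the receptor genes stood well above the olfactory level in cerebellum and fewer did in lung. In both cerebellar groups 29 of 31 members lay above it, against 17 in dexamethasone lungs and 16 in vehicle lungs. The exceptions in cerebellum were the NMDA subunit Grin2a and the scaffold Shank1, which lay at or below it in all 4 groups. Of the metabotropic receptors 6 of 6 lay above it in either cerebellar group, and 1 of 6, Grm2, in either lung group. By contrast all 3 Homer genes lay above it in all 4 groups, as did Dlg1, Dlg3, Dlg4 and Shank3. The plot of levels by array shows this.

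**Figure D1:**
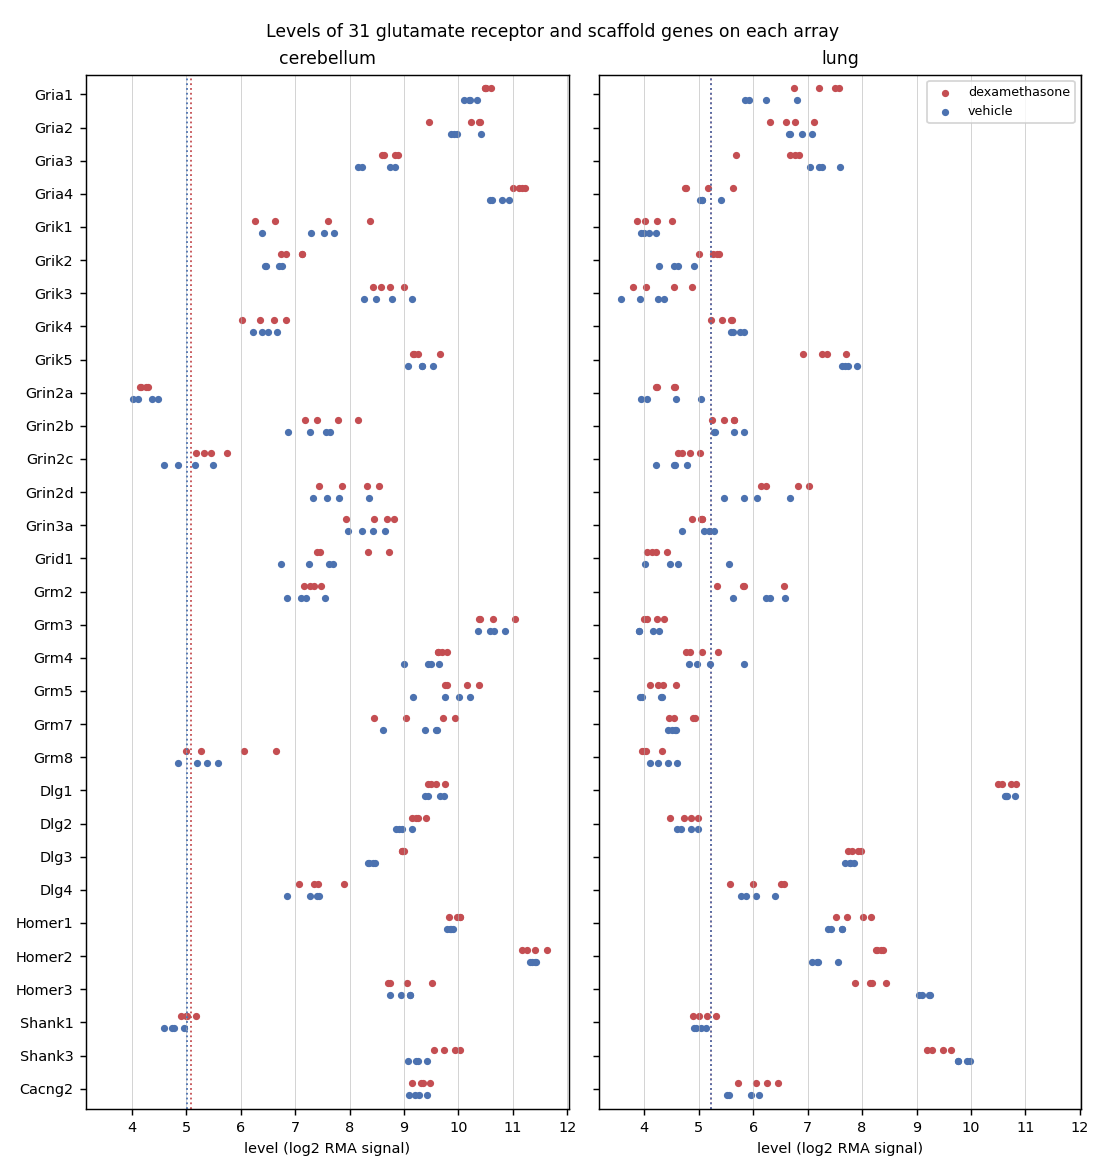
Log2 RMA signal of the 31 measured genes (rows) on each of the 16 arrays, with cerebellum on the left, lung on the right, dexamethasone in red above vehicle in blue. Dotted lines mark the 95th percentile of olfactory receptor probe sets in each group (5.08 and 5.01 in dexamethasone and vehicle cerebella, 5.22 and 5.23 in dexamethasone and vehicle lungs), and 29 of 31 genes lie above it in cerebellum, against 17 in dexamethasone and 16 in vehicle lungs. Levels of different genes come from different probes and are not to be ranked against each other.

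Without treatment the organs differed in nearly all of these genes. Of 31 members, 2 were higher and 26 lower in lung than in cerebellum at a limma adjusted p under 0.05, the threshold for every call below. That is 90.3% of the members, where 57.7% of all genes tested were called, 28% higher and 29.7% lower. The median difference was -2.01, against 0.002 over all genes. Grm3, a metabotropic receptor of astrocytes and neurons, had 4.15, 3.91, 4.27 and 3.90 in vehicle lungs, against 10.86, 10.58, 10.65 and 10.37 in vehicle cerebella. It differed by -6.56 ± 0.15, and its lung values lay at the olfactory level. Grm5, a metabotropic receptor that releases calcium from internal stores, differed by -5.66 ± 0.20 and the AMPA subunit Gria4 by -5.60 ± 0.16. Over all their probe sets the differences ran from -5.66 to -4.65 for Grm5 and from -5.60 to -1.35 for Gria4. Where the lung signal lies at the olfactory level, the lung transcript may be absent, and the difference can understate the ratio of transcripts.

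Of the 9 scaffolds, 5 were lower in vehicle lungs, 2 were higher and 2 were not called. Dlg1, a MAGUK also used by epithelia, had 10.62, 10.64, 10.80 and 10.66 in vehicle lungs, against 9.73, 9.44, 9.39 and 9.66 in vehicle cerebella. All 4 lung arrays lay above all 4 cerebellar arrays, and Dlg1 was 2.18-fold higher in lung (log2 difference 1.12 ± 0.10, limma adjusted p = 5.16e-08). Shank3, a large scaffold at the centre of the postsynaptic density, was 1.53-fold higher in vehicle lungs (0.62 ± 0.12, limma adjusted p = 0.000281). Homer3, a Homer protein abundant in Purkinje cells, had 9.15 ± 0.10 in vehicle lungs and 8.98 ± 0.18 in vehicle cerebella (SD, n = 4 each), with a 95% interval of the difference from -0.17 to 0.52. It was not called, and neither were Grin2a and Shank1. Of the other scaffolds, Homer2 was 17.5-fold lower, Homer1 5.07-fold lower, Dlg4 2.33-fold lower and Dlg3 1.55-fold lower in vehicle lungs, on the probe set used. Over all probe sets the log2 difference ran from -4.31 to -0.53 for Homer2 and from -2.34 to 0.01 for Homer1. It ran from -1.22 to -0.25 for Dlg4 and from 0.39 to 1.12 for Dlg1. Dlg2 differed by -4.19, but its lung level of 4.78 lay under the olfactory level of 5.23, and its other probe sets differed by -1.49 and -0.43.

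In cerebellum, dexamethasone raised 2 of the 31 members, the scaffolds Dlg3 and Shank3, and lowered 0. This is 6.45% of the members. Of all genes tested 4.80% were called, 2.84% higher and 1.97% lower, so the share of members called was near that of all genes. Without adjustment 7 members had a p under 0.05, all of them higher (Dlg3, Shank3, Gria4, Grik2, Grin2c, Dlg2 and Shank1), or 22.6%, against 17% of all genes. The fitted difference was above 0 for 25 of 31 members, against 51.6% of all genes, with a median of 0.19 against 0.007. That median was 0.125 without the vehicle array B79, 0.127 without the dexamethasone array B39, 0.298 without the dexamethasone array B52 and 0.10 with array weights. None of the 21 receptor genes passed the test.

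Dlg3 encodes a MAGUK that carries NMDA receptors to the synapse and is known to predominate early in development. Its level was 8.97, 8.96, 8.98 and 9.01 in dexamethasone cerebella, against 8.43, 8.35, 8.36 and 8.46 in vehicle cerebella. Both groups were tight and well apart, with an SD of 0.02 and 0.06. Dlg3 was 1.49-fold higher (log2 difference 0.58 ± 0.08, limma adjusted p = 0.000413), and under 16 alternatives the difference ran from 0.55 to 0.60 and stayed called. Its relatives were not called. Dlg2, which clusters receptors and potassium channels, had 0.29 ± 0.12 (limma adjusted p = 0.191), Dlg4, the best known scaffold of mature synapses, 0.19 ± 0.22, and Dlg1 0.01 ± 0.10.

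Shank3 had 10.04, 9.74, 9.94 and 9.56 in dexamethasone cerebella, against 9.42, 9.07, 9.26 and 9.22 in vehicle cerebella. The lowest dexamethasone array, B52, lay above the highest vehicle array, B78. Shank3 was 1.49-fold higher (log2 difference 0.58 ± 0.12, limma adjusted p = 0.0104). It stayed called under 16 alternatives, with differences of 0.50 to 0.66 and limma adjusted p up to 0.0425. Shank1, its relative at the olfactory level, had 5.18, 4.996, 4.91 and 5.02 in dexamethasone cerebella, against 4.75, 4.97, 4.59 and 4.77 in vehicle cerebella. These overlapped, and the difference of 0.26 ± 0.11 was not called. Dlg3 and Shank3 have 1 probe set each, so no second probe set bears on either.

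Among the AMPA subunits, which form the channels of fast excitatory transmission, 2 of 4 separated without passing the test, on the probe set used. Gria4 had 11.17, 11.22, 11.00 and 11.11 in dexamethasone cerebella, against 10.93, 10.80, 10.62 and 10.59 in vehicle cerebella. Gria1, which Bergmann glia also use, had 10.50, 10.59, 10.49 and 10.49 in dexamethasone cerebella, against 10.34, 10.20, 10.21 and 10.10 in vehicle cerebella. For either gene the lowest dexamethasone array lay above the highest vehicle array, with differences of 0.39 ± 0.16 (limma adjusted p = 0.209) and 0.30 ± 0.19 (0.479). The error of Gria1 pools the spread of all 4 groups, and its SD was 0.05 and 0.10 in dexamethasone and vehicle cerebella but 0.37 and 0.43 in dexamethasone and vehicle lungs. Fitted on the cerebellar arrays alone it was not called either. Gria2, the subunit that blocks calcium entry, had 9.45, 10.37, 10.24 and 10.40 in dexamethasone cerebella, against 10.42, 9.97, 9.92 and 9.86 in vehicle cerebella. Gria3 had 8.89, 8.63, 8.84 and 8.60 in dexamethasone cerebella, against 8.84, 8.15, 8.23 and 8.74 in vehicle cerebella. On these probe sets both overlapped between the groups. A second probe set of Gria2 did not overlap. It had 11.43, 11.48, 11.60 and 11.31 in dexamethasone cerebella, against 11.20, 11.11, 10.91 and 10.92 in vehicle cerebella. Its difference of 0.418 ± 0.215 was not called (limma adjusted p = 0.373 over all probe sets), nor was 0.36 ± 0.19 on the third (0.381). On the probe set used for each gene, dexamethasone arrays lay above vehicle arrays without overlap for 5 members (Gria1, Gria4, Dlg2, Dlg3 and Shank3). They lay below for 0, where 7.13% of all genes lay above and 5.44% below.

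NMDA receptors of granule neurons are known to exchange the subunit Grin2b for Grin2c as the cells mature. Grin2b had 8.16, 7.18, 7.79 and 7.41 in dexamethasone cerebella, against 7.65, 6.87, 7.27 and 7.58 in vehicle cerebella. Grin2c had 5.18, 5.33, 5.76 and 5.45 in dexamethasone cerebella, against 5.17, 4.85, 4.59 and 5.49 in vehicle cerebella. Both overlapped, with differences of 0.29 ± 0.21 (limma adjusted p = 0.561) and 0.40 ± 0.18 (0.25), and neither was called. Grin2c lay close to the olfactory level, with a mean of 5.025 in vehicle cerebella, where that level was 5.01. Grin2a, a subunit that also replaces Grin2b in maturing neurons, had 4.29, 4.16, 4.27 and 4.17 in dexamethasone cerebella, against 4.11, 4.37, 4.47 and 4.02 in vehicle cerebella, all below the olfactory level. Grin3a, which lowers the calcium flow of the channel, had 8.82, 8.45, 8.69 and 7.94 in dexamethasone cerebella, against 8.43, 7.98, 8.65 and 8.24 in vehicle cerebella, and Grin2d differed by 0.27 ± 0.29.

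The kainate subunits, which shape transmitter release and slow currents, included 0 of 5 called, with a median difference of 0.01. Grik2, a channel-forming subunit, had the largest of them at 0.36 ± 0.14 (limma adjusted p = 0.169). Grik5, which needs a partner subunit to form a channel, had 9.66, 9.17, 9.18 and 9.26 in dexamethasone cerebella, against 9.33, 9.08, 9.33 and 9.54 in vehicle cerebella. Grik4 had 6.83, 6.61, 6.35 and 6.03 in dexamethasone cerebella, against 6.39, 6.67, 6.50 and 6.23 in vehicle cerebella. Either overlapped, at -0.003 ± 0.153 and 0.006 ± 0.148. The widest intervals belonged to genes that varied within the groups: Grik1 had -0.02 with a 95% interval of -0.78 to 0.74, and the delta receptor Grid1 0.65 with -0.02 to 1.32. Grid1 had 8.72, 7.46, 8.33 and 7.40 in dexamethasone cerebella, against 7.62, 6.74, 7.26 and 7.69 in vehicle cerebella, with B39 and B50 above all the others.

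Of the metabotropic receptors, 0 of 6 were called. Grm3 had 11.04, 10.37, 10.64 and 10.40 in dexamethasone cerebella, against 10.86, 10.58, 10.65 and 10.37 in vehicle cerebella, and the difference was -0.002 ± 0.149. Grm4, the receptor of parallel fibre terminals, had 0.29 ± 0.19 (limma adjusted p = 0.516). Grm8, another presynaptic receptor, had 6.65, 5.28, 6.06 and 5.002 in dexamethasone cerebella, against 5.58, 4.85, 5.21 and 5.38 in vehicle cerebella. Those arrays overlapped, at 0.50 ± 0.27 (limma adjusted p = 0.386). Cacng2, known as stargazin, which granule neurons need to bring AMPA receptors to the surface, had 9.48, 9.31, 9.36 and 9.14 in dexamethasone cerebella, against 9.28, 9.42, 9.20 and 9.09 in vehicle cerebella. It differed by 0.08 ± 0.16. The Homer genes had differences of -0.01 to 0.11, although 1 of the 3 probe sets of Homer2, the dimmest on average, was called higher at 0.55 ± 0.13 (limma adjusted p = 0.024 over all probe sets). Over the 29 members not called, differences ran from -0.02 to 0.65, and the 95% interval lay within 1 log2 unit of 0 for 27.

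Markers of other cells moved in the same arrays. In dexamethasone cerebella 4 of 6 endothelial, 3 of 7 fibroblast and smooth muscle and 2 of 6 macrophage and microglial genes were lower. Of granule neuron genes 2 of 7 were higher, of Purkinje cell genes 2 of 7, of oligodendrocyte genes 3 of 8, and of general neuronal genes 0 of 8. Among all genes tested 2.84% were called higher and 1.97% lower. The median difference of those 8 neuronal genes was 0.25, where that of the members was 0.19. The mean level of the endothelial list was 6.59 to 6.82 in dexamethasone cerebella and 7.38 to 7.66 in vehicle cerebella. Genes of the neighbouring brainstem had a mean of 7.14 on the dexamethasone array B39 and 6.72 on the vehicle array B78, against 5.39 to 5.97 on the other cerebellar arrays. The part of these markers in the results was not tested. Without B39 and without B78, as without each other array, the 2 members called were Dlg3 and Shank3.

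**Figure D2:**
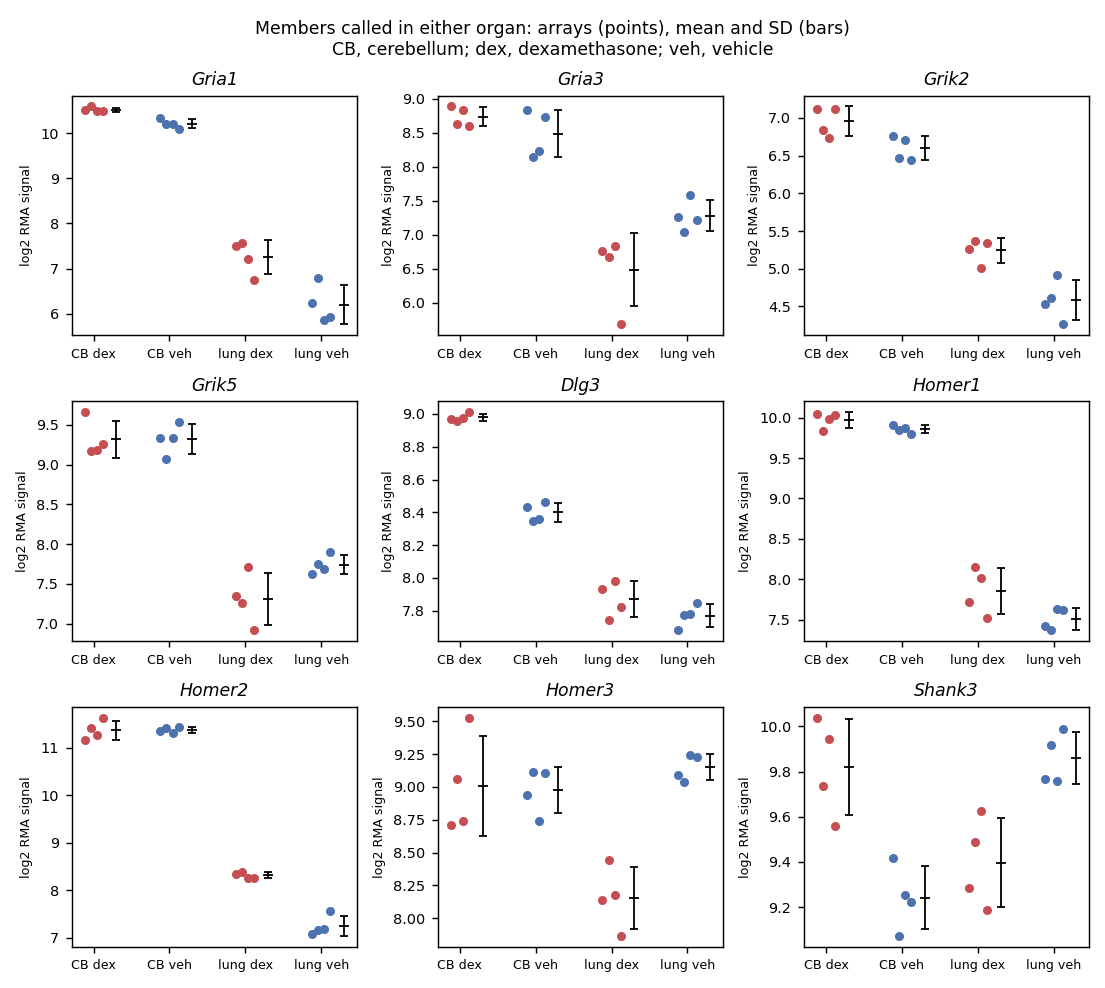
Log2 RMA signal of the 9 genes called for dexamethasone against vehicle in cerebellum or lung, on each array (points) with the mean and SD of each group of 4 (bars), in the order dexamethasone cerebellum, vehicle cerebellum, dexamethasone lung, vehicle lung. Dlg3 and Shank3 separate in cerebellum, Homer2, Homer3, Grik2, Gria3 and Shank3 in lung, and Gria1, Grik5 and Homer1 overlap in lung. The vertical scale differs between panels and does not start at 0.

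In lung, dexamethasone raised 4 members (Gria1, Grik2, Homer1 and Homer2) and lowered 4 (Gria3, Grik5, Homer3 and Shank3). That is 25.8% of the members, against 31.2% of all genes tested, 15.7% of them higher and 15.5% lower. The share was thus no larger than that of the genes as a whole. The median difference was -0.02, against 0.048 over all genes, and 15 members lay above 0 and 16 below. Without adjustment 5 were higher and 4 lower at a p under 0.05, or 29% of the members, against 40.4% of all genes. Members of a single family went opposite ways: of the AMPA and the kainate subunits 1 rose and 1 fell in each family, and of the Homer scaffolds 2 rose and 1 fell.

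Homer2 and Homer3 encode closely related adaptors that bind metabotropic receptors, Shank proteins and calcium release channels. Homer2 had 8.35, 8.38, 8.27 and 8.26 in dexamethasone lungs, against 7.08, 7.17, 7.19 and 7.56 in vehicle lungs. The groups did not overlap, and it was 2.09-fold higher (log2 difference 1.07 ± 0.11, limma adjusted p = 2.01e-06). Homer3 had 8.14, 8.44, 8.18 and 7.87 in dexamethasone lungs, against 9.09, 9.04, 9.24 and 9.23 in vehicle lungs. It too separated without overlap and was 1.99-fold lower (-0.99 ± 0.16, limma adjusted p = 0.000177). Set against each other on the same array, Homer2 minus Homer3 was -0.06 to 0.40 in dexamethasone lungs and -2.05 to -1.67 in vehicle lungs, a shift of 2.06. In cerebellum that shift was -0.05. Homer1, an adaptor with an activity-induced short form, had 7.72, 8.16, 8.01 and 7.53 in dexamethasone lungs, against 7.42, 7.38, 7.63 and 7.63 in vehicle lungs. It overlapped, was called at 0.34 ± 0.12 (limma adjusted p = 0.0368), and lost the call under 7 of 16 alternatives.

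The AMPA subunits Gria1 and Gria3 diverged as well. Gria1 had 7.49, 7.57, 7.20 and 6.75 in dexamethasone lungs, against 6.23, 6.80, 5.85 and 5.92 in vehicle lungs. The lowest dexamethasone array, B46, lay just below the highest vehicle array, B14, and Gria1 was 2.08-fold higher (1.06 ± 0.19, limma adjusted p = 0.00038). Both of its probe sets were called, the other at 1.53 ± 0.18. Gria3 had 6.76, 6.67, 6.84 and 5.68 in dexamethasone lungs, against 7.26, 7.04, 7.59 and 7.21 in vehicle lungs. The groups did not overlap, B46 lay far below the rest, and Gria3 was 1.73-fold lower (-0.79 ± 0.22, limma adjusted p = 0.0119). Without B46 the difference was -0.52 (limma adjusted p = 0.0266), and the second probe set of Gria3 had -0.45 ± 0.20 (limma adjusted p = 0.11). Gria2 had 7.12, 6.30, 6.60 and 6.77 in dexamethasone lungs, against 7.08, 6.67, 6.65 and 6.90 in vehicle lungs. The other probe sets of Gria2 lay under the olfactory level in lung. Their means were 4.915 and 3.95 in dexamethasone lungs and 4.71 and 3.78 in vehicle lungs. Gria4, at the olfactory level there, had 4.75, 5.63, 4.77 and 5.17 in dexamethasone lungs, against 5.05, 5.41, 5.06 and 5.02 in vehicle lungs, and neither Gria2 nor Gria4 was called. On each array Gria1 minus Gria3 was 0.36 to 1.07 in dexamethasone lungs and -1.74 to -0.25 in vehicle lungs, a shift of 1.84, against 0.05 in cerebellum.

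**Figure D3:**
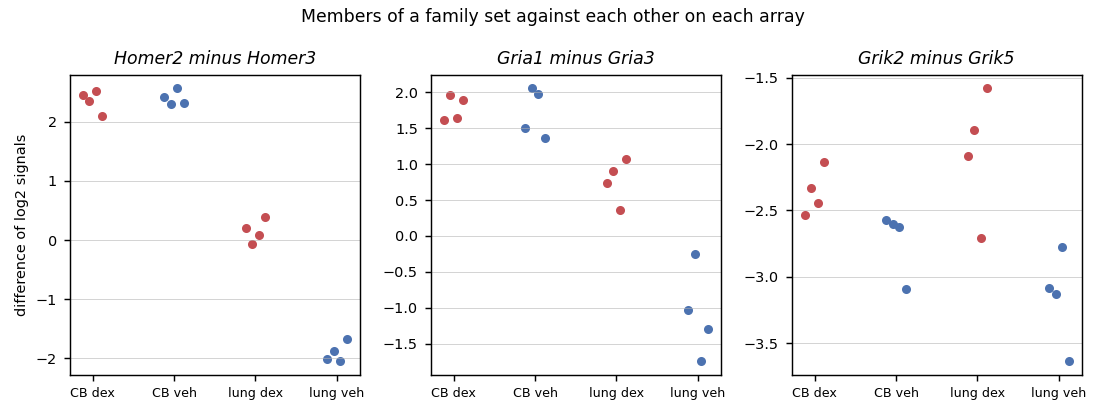
Difference in log2 signal between members of a family on each array, for Homer2 minus Homer3, Gria1 minus Gria3 and Grik2 minus Grik5, with dexamethasone in red and vehicle in blue (CB, cerebellum). In lung the dexamethasone arrays of each pair lie above all vehicle arrays, by 2.06, 1.84 and 1.09 on average. Pairs were chosen after the calls were seen and carry no test, and the position of 0 depends on the probes.

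Of the 5 kainate subunits, Grik2 was called higher and Grik5 lower. Grik2 had 5.26, 5.37, 5.01 and 5.34 in dexamethasone lungs, against 4.54, 4.62, 4.91 and 4.26 in vehicle lungs. It separated without overlap, at 1.58-fold higher (0.66 ± 0.14, limma adjusted p = 0.00143), although its mean was 5.24 in dexamethasone lungs and 4.58 in vehicle lungs, where the olfactory level was 5.22 and 5.23. Its other probe set had -0.19 ± 0.20, and with the mean of both the difference was 0.24 (limma adjusted p = 0.158). Grik5 had 7.35, 7.26, 7.71 and 6.92 in dexamethasone lungs, against 7.62, 7.75, 7.69 and 7.90 in vehicle lungs. The dexamethasone array B40 overlapped the vehicle range, and Grik5 was 1.35-fold lower (-0.43 ± 0.15, limma adjusted p = 0.0407), a call lost under 10 of 16 alternatives. Without B46 its difference was -0.30 (limma adjusted p = 0.137).

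Shank3 had 9.29, 9.49, 9.63 and 9.19 in dexamethasone lungs, against 9.77, 9.92, 9.76 and 9.99 in vehicle lungs. All dexamethasone arrays lay below all vehicle arrays, and Shank3 was 1.38-fold lower (-0.46 ± 0.12, limma adjusted p = 0.00763). Dlg3 had 7.93, 7.74, 7.98 and 7.82 in dexamethasone lungs, against 7.68, 7.77, 7.78 and 7.85 in vehicle lungs. Its arrays overlapped and the difference of 0.10 ± 0.08, with a 95% interval of -0.06 to 0.26, was not called. Dlg1 differed by -0.03 ± 0.10 in lung, at 10.65 ± 0.15 in dexamethasone lungs and 10.68 ± 0.08 in vehicle lungs (SD, n = 4 each). No NMDA, metabotropic or MAGUK member was called in lung, and of the 5 NMDA and 6 metabotropic receptors 2 and 1 lay above the olfactory level there. Of the 23 members not called, differences ran from -0.46 to 0.55 and 21 had a 95% interval within 1 log2 unit of 0. Without overlap, 2 members lay above vehicle in dexamethasone lungs (Grik2 and Homer2) and 3 below (Gria3, Homer3 and Shank3), where 15.1% of all genes lay above and 15.5% below.

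**Figure D4:**
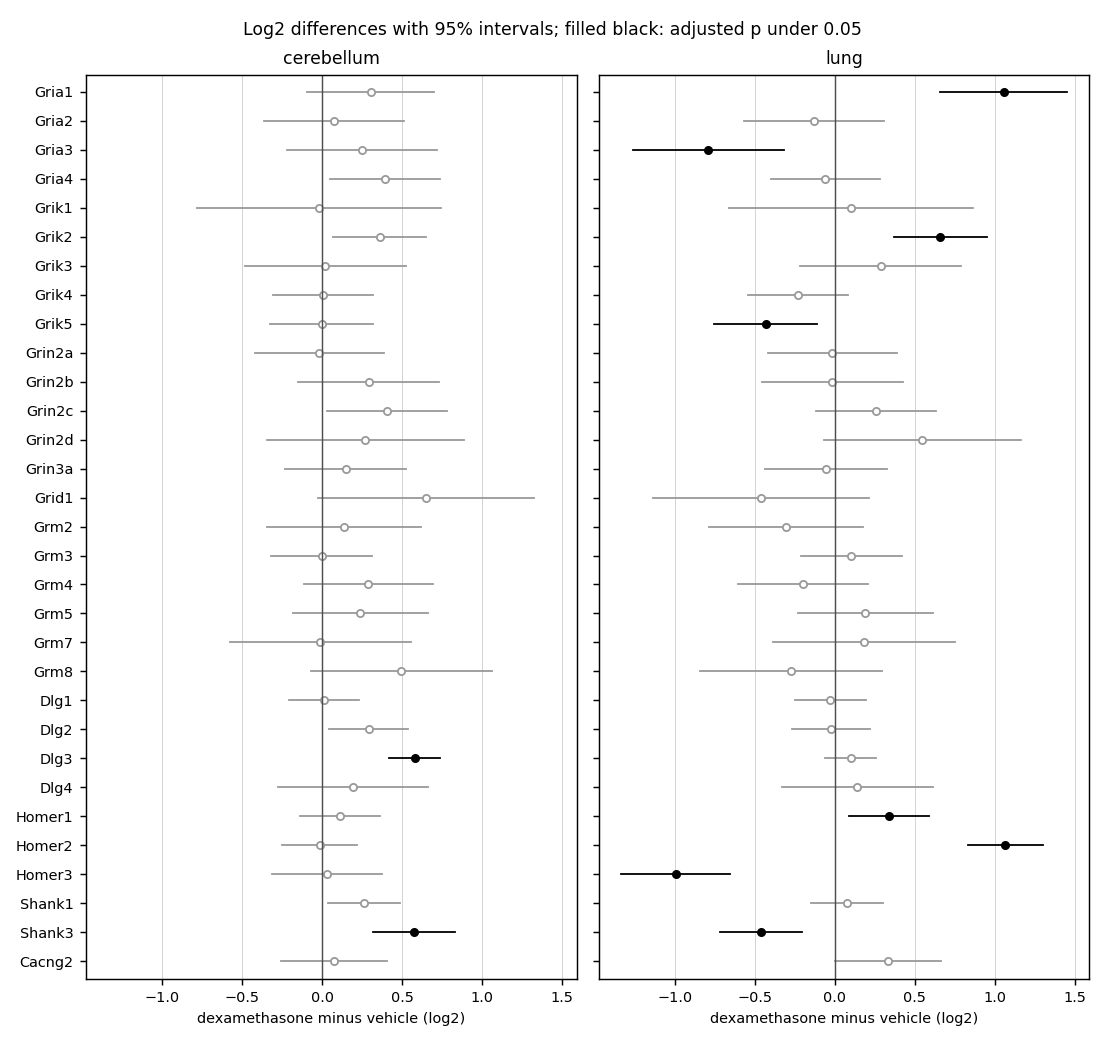
Log2 difference of dexamethasone minus vehicle with its 95% interval from the limma fit, for each of the 31 genes in cerebellum (left) and lung (right). Filled black points have an adjusted p under 0.05: Dlg3 and Shank3 in cerebellum, both above 0, and 8 genes in lung, 4 above and 4 below 0.

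A measure of RNA quality and markers of other cell types also differed between dexamethasone and vehicle lungs. For the Gapdh control probe sets, the log2 signal at the 3′ end exceeded that at the 5′ end by 0.45 to 0.71 in dexamethasone lungs and by 0.84 to 1.04 in vehicle lungs, without overlap. With it as a covariate, 2 members remained called in lung, Gria1 at 1.16 (limma adjusted p = 0.0307) and Homer2 at 0.99 (limma adjusted p = 0.00354), where 9.93% of all genes were called. Homer3 then had -0.86 (limma adjusted p = 0.0601) and Shank3 -0.46 (limma adjusted p = 0.189). Since this measure separates the groups, it cannot be told apart from treatment in lung. In vehicle cerebella it was 0.04 to 0.52, so it also separates the organs in vehicle mice. With it as a covariate, 21 of the 31 members were called between vehicle lungs and vehicle cerebella, where 27.8% of all genes were. The same measure from the actin control probe sets did overlap. It was 0.45 to 0.64 in dexamethasone lungs, 0.61 to 0.67 in vehicle lungs and 0.52 to 0.94 in vehicle cerebella. The actin measure was not used as a covariate. Endothelial genes were lower in dexamethasone lungs for 4 of 6 and fibroblast and smooth muscle genes for 5 of 7, with mean levels of the fibroblast list of 10.45 to 10.84 in dexamethasone lungs and 11.46 to 11.61 in vehicle lungs. Alveolar type 2 genes were higher for 3 of 5, type 1 genes for 4 of 6, and cardiac muscle genes for 5 of 6, with a mean level of 8.99 to 9.82 in dexamethasone lungs and 8.35 to 8.59 in vehicle lungs. Among all genes tested 15.7% were called higher and 15.5% lower in lung. Of 8 general neuronal genes 4 were at the olfactory level in dexamethasone lungs and 6 in vehicle lungs, as were 4 of 6 neuroendocrine genes in either group. Which cells of the lung carry these transcripts, and the part of the markers in the results, was not tested.

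Members with several probe sets allow a check within the array. In lung, 2 of 2 probe sets of Gria1 and 2 of 3 of Homer2 were called in the same direction, but 1 of 2 of Gria3, 1 of 2 of Grik2 and 1 of 6 of Homer1. Homer2 had 1.07, 0.58 and 0.24 in order of mean signal. Homer1 ran from -0.17 to 0.34. Homer3, Shank3, Grik5 and Dlg3 have a single probe set, and probe sets of a gene can read different transcript ends or isoforms.

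**Figure D5:**
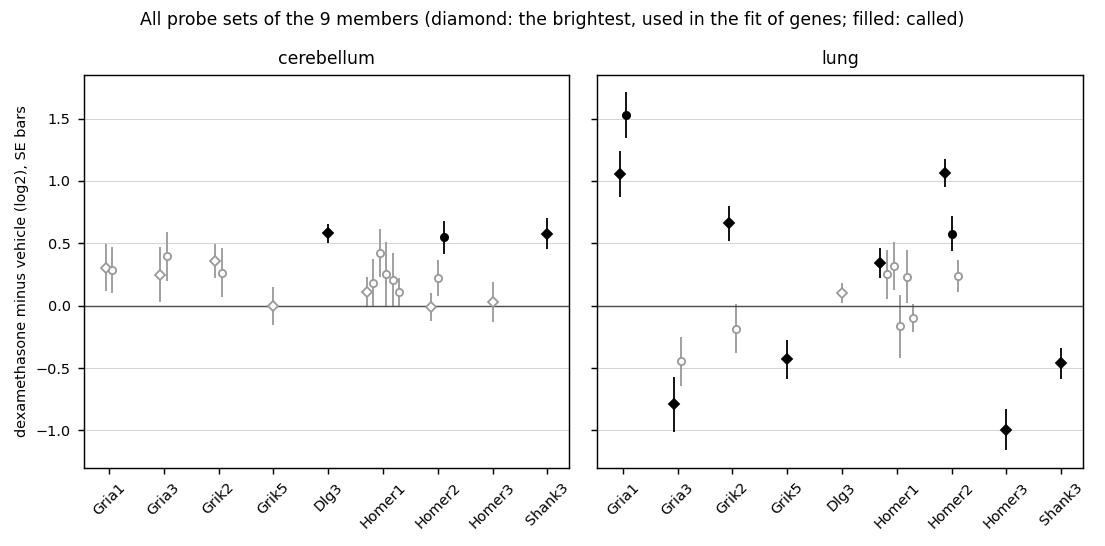
Log2 difference of dexamethasone minus vehicle with its standard error for every probe set of the 9 genes called in either organ, in cerebellum (left) and lung (right). Diamonds are the probe set used for the gene, circles the others, and filled symbols have an adjusted p under 0.05 over all probe sets. In lung both probe sets of Gria1 and 2 of 3 of Homer2 are filled, and 1 of 6 of Homer1.

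Whether the treatment effect differed between the organs was tested as the lung effect minus the cerebellum effect. Of 31 members 1 was higher (Homer2) and 4 were lower (Gria3, Dlg3, Homer3 and Shank3), or 16.1%, against 21.3% of all genes, 9.85% of them higher and 11.5% lower. Shank3 is the member called in both organs, and it went opposite ways, with 0.58 in cerebellum and -0.46 in lung, a difference of effects of -1.04 ± 0.17 (limma adjusted p = 0.000421). Dlg3 had -0.48 ± 0.11 (limma adjusted p = 0.00421), Homer2 1.08 ± 0.16 (limma adjusted p = 0.000147) and Homer3 -1.02 ± 0.23 (limma adjusted p = 0.0042). Gria3 had -1.04 ± 0.31 (limma adjusted p = 0.0261), a call lost without B79, B80 or B19. Gria1, called in lung and not in cerebellum, did not pass for the difference (0.75 ± 0.26, limma adjusted p = 0.0533), and neither did Grik2, Grik5 or Homer1 (limma adjusted p = 0.309, 0.185 and 0.383). The second probe set of Gria1 was called for the difference, at 1.24 ± 0.26 (limma adjusted p = 0.003 over all probe sets). With the Gapdh measure as a covariate, Dlg3, Homer2 and Shank3 passed, where 11% of all genes did. When the probe sets of Homer2 were averaged, its difference was 0.38 (limma adjusted p = 0.0451).

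Genes that supply, clear or assist glutamate signalling were taken from 3 further lists. Of 12 measured genes of glutamate release, uptake and recycling, 0 were called in cerebellum, with 1 at an unadjusted p under 0.05 by limma and a median of 0.12. The glial transporter Slc1a2 had 0.11 ± 0.33 there and the glutamine transporter Slc38a1 0.02 ± 0.10. In lung 4 of the 12 rose and 0 fell, with a median of 0.18, where 31.2% of all genes were called, 15.7% higher. The transporters Slc1a2 and Slc1a1 rose 2.14-fold and 1.53-fold. The cystine and glutamate exchanger Slc7a11 and the vesicular transporter Slc17a7 rose by 0.99 and 0.39 on the log2 scale, and their means in vehicle lungs, 4.75 and 4.88, lay under the olfactory level. Slc7a11, Slc1a1, Slc1a2 and Slc17a7 lost the call when single arrays were left out, under 2, 4, 3 and 6 of the 8. Slc1a2 had 6.91, 7.39, 7.46 and 5.72 in dexamethasone lungs, against 5.49, 5.88, 5.68 and 6.05 in vehicle lungs, with B46 inside the vehicle range. Slc7a11 had 5.06, 5.44, 5.40 and 7.06 in dexamethasone lungs, against 5.10, 4.47, 4.97 and 4.46 in vehicle lungs, with B46 highest. Without B46 its difference was 0.55 (limma adjusted p = 0.0396). None of the 12 was called for a difference between the organs (lowest limma adjusted p = 0.0761).

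For the next 2 lists the shares of all genes called were 31.2% in lung (15.7% higher, 15.5% lower) and 4.80% in cerebellum (2.84% higher, 1.97% lower). Of 15 auxiliary subunits and other glutamate receptors, 0 were called in cerebellum, with 1 at an unadjusted p under 0.05 by limma. There Cbln1, which granule neurons secrete to bridge parallel fibres and Purkinje cells, had -0.02 ± 0.15, and Olfm1, a secreted partner of AMPA receptors, 0.23 ± 0.13. In lung the NMDA receptor associated protein Grina rose 1.77-fold, the kainate receptor auxiliary subunit Neto2 fell 2.47-fold and Olfm1 fell 1.35-fold, the last a call lost without 3 of the 8 lung arrays in turn. Neto2 had 5.08, 4.84, 5.87 and 5.93 in dexamethasone lungs, against 6.38, 6.43, 7.16 and 6.96 in vehicle lungs, without overlap. Of 22 other postsynaptic density proteins 1 rose in cerebellum, the PDZ adaptor Lin7a, with 11.17, 10.80, 10.95 and 11.02 in dexamethasone cerebella, against 10.47, 10.30, 10.30 and 10.46 in vehicle cerebella (1.52-fold, limma adjusted p = 0.0261), a call lost under 5 of the 8 fits that leave out a cerebellar array. In lung 2 rose and 2 fell. The actin regulator Baiap2 rose 1.55-fold and Nlgn2, an adhesion protein of inhibitory synapses, fell 2.56-fold. The AMPA receptor binding protein Grip1 rose by 0.77 on the log2 scale, with a mean of 4.98 in vehicle lungs, under the olfactory level. Lrrtm2, an adhesion protein of excitatory synapses, fell by 0.51 on the log2 scale, with a mean of 5.14 in dexamethasone lungs, also under that level, and lost the call under 4 of the 8 fits that leave out a lung array.

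Promoter windows of 250 bases before the start of transcription were taken from RefSeq (GRCm38.p6) for the 21 members listed there, with 34 windows. The glucocorticoid receptor binds pairs of a half-site, and the half-site AGAACA was searched on both strands, so that TGTTCT also counts. It occurred in 4 windows of the members, those of Dlg1, Dlg3, Grm8 and Homer1, and in 16.1% of all 32851 windows of this length. The spaced pair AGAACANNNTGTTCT occurred in 0 of the 34 and in 0.009% of all windows. The GC box GGGCGG, searched on both strands, occurred in 16 of the 34 and in 32.7% of all. The windows of Dlg3 and Homer1 with a half-site held 0 GC boxes, and overlap was not checked for Dlg1 and Grm8. The windows of the 4 scaffolds called for a difference between organs are shown, 5′ to 3′ on the coding strand, with the half-site in capitals. They lie at chrX:100774245-100774494 on the plus strand for the first start of Dlg3, chr15:89499358-89499607 on the plus strand for Shank3, chr7:81706926-81707175 on the minus strand for the first start of Homer2 and chr8:70282749-70282998 on the plus strand for Homer3. The listed genes begin further upstream for Dlg3 (chrX:100767411) and Shank3 (chr15:89493013). Their windows thus lie inside the genes, at internal starts, and the upstream ends of these genes were not searched. Homer3 is listed from chr8:70282880, so the last part of its window also lies inside the gene.
Dlg3: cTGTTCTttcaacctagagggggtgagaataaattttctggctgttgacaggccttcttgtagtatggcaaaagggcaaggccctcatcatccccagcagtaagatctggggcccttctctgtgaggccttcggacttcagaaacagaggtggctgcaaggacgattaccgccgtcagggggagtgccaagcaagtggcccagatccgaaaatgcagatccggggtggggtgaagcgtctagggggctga
Shank3: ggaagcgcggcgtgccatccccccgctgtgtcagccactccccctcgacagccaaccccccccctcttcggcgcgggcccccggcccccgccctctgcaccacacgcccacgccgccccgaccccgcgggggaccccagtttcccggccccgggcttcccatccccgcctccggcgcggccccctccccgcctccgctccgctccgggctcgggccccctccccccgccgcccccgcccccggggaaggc
Homer2: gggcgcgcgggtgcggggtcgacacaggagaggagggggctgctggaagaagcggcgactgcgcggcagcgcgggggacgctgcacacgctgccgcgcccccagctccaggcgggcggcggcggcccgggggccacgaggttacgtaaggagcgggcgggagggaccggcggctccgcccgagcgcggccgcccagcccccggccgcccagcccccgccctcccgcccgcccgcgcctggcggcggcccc
Homer3: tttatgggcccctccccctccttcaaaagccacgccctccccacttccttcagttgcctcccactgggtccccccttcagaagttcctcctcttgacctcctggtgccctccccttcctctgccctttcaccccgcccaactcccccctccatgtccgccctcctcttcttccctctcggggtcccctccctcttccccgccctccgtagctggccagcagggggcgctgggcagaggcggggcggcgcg
The Dlg3 window held 1 half-site, 249 bases before the start, and 0 GC boxes, while those of Shank3, Homer2 and Homer3 held 0 half-sites and 4, 8 and 4 GC boxes. The windows of the second starts of Dlg3 and Homer2 held 0 half-sites, with 1 GC box for Dlg3 and 0 for Homer2. A match of letters is a description and not a binding site, and its absence from this window says nothing about binding elsewhere.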

How the data were processed

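RNA of 16 whole organs, 4 per group, was hybridised to Affymetrix arrays, per the labels' protocols. The deposited table holds log2 values that the authors obtained by RMA (per the submitters' processing notes, with no version). The sources used here name no settings. RMA gives every probe set a value and compresses differences between dim ones. Arrays give no read depth, and 4 per group limit the precision.

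Of 45101 probe sets, 64 are controls. Of the others 34945 were listed with 1 gene, 932 with several and 9160 with none, in the platform annotation used, and 18032 of 18193 genes took their symbol from RefSeq. Where a gene had more than 1 probe set, as 9010 did, that of largest mean signal across 16 arrays was used. No pair of arrays was identical.

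A mean per group was fitted to each gene with limma 3.58.1 in R 4.3.3 (lmFit, contrasts.fit, eBayes), with 12 residual degrees of freedom, and p-values were adjusted by Benjamini-Hochberg over 18193 genes. Errors beside a log2 difference are moderated standard errors, and intervals are 95% intervals of that fit. The fit was tested on simulated data. Values per array were named for every member called in a dexamethasone comparison or for the difference between organs, for Gria1 to Gria4, Grin2a, Grin2b and Grin2c, and for the member of highest and of lowest signal in each family in vehicle cerebellum. Of the related lists, up to 4 called genes of smallest adjusted p were named, or the 2 of highest signal. The members, lists and rules were chosen with earlier results of these data known.

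As alternatives, probe sets of a gene were averaged or fitted singly, dim genes were left out (14266 genes kept, 29 of the members), quantile normalization was repeated, the fit was limited to the arrays compared, a robust variance trend or array weights were used, Xist was added as a covariate because the sources used here do not give sex, and each array was left out. A covariate for the Gapdh 3′ minus 5′ signal, and leaving out single arrays for related genes, were chosen after seeing the data. Xist was uneven between the groups. It had 10.81, 10.79, 5.67 and 10.86 in dexamethasone lungs, against 5.53, 11.93, 6.13 and 6.93 in vehicle lungs. In dexamethasone cerebella it had 5.52, 11.40, 11.28 and 5.85, against 4.99, 5.53, 5.75 and 11.41 in vehicle cerebella. With Xist as a covariate 7 members were called in lung, without Grik5, and Dlg3 and Shank3 in cerebellum. Dlg3 and Gria3 lie on the X chromosome. The labels give a single hybridization day, so batches could not be tested.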

Additional observations from a re-analysis of the deposited data

Results flagged for a closer look

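The treatment effect differed between lung and cerebellum, by a test of the difference itself in limma, for 5 members, as lung effect minus cerebellum effect. The log2 values were 1.08 for Homer2, -0.48 for Dlg3, -1.02 for Homer3, -1.04 for Gria3 and -1.04 for Shank3, the member whose arrays moved upward in cerebellum and downward in lung.

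Single arrays lay far from the other 3 of their group for 5 of 124 combinations of member and group, and chance gives about 5% of such combinations. In dexamethasone lungs the array B46 had 5.68 for Gria3, where the others had 6.67 to 6.84, and B40 had 4.87 for Grin3a, where the others had 5.05 to 5.06. In dexamethasone cerebella B49 had 10.59 for Gria1 (others 10.49 to 10.50) and B39 had 9.66 for Grik5 (others 9.17 to 9.26). In vehicle lungs B14 had 5.41 for Gria4 (others 5.02 to 5.06).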

How the results depend on the processing

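Of the members called in cerebellum, Dlg3 and Shank3 were called under each alternative run on genes. With each probe set on its own, 3 members had a probe set called, Homer2 being the addition. In lung the count of members called was 8, and 2 with the Gapdh 3′ minus 5′ signal as a covariate, where the cause was not tested. For the difference between organs it was 5, and 3 with that covariate. The covariate also lowered the share of all genes called, from 31.2% to 9.93% in lung and from 21.3% to 11% for the difference. Leaving out single arrays gave 2 members called in cerebellum, 6 to 8 in lung, 4 to 6 for the difference between organs and 27 to 29 between the organs in vehicle mice. The shares of all genes called were then 2.9% to 4.66%, 26.7% to 30.1%, 18.3% to 21.2% and 55.2% to 56.1%, in that order. In lung, Grik5 lost its call under 10 of 16 alternatives and Homer1 under 7. Gria1 passed for the difference between organs under 6 of 23. No member called for dexamethasone or for the difference between organs changed its sign in that comparison under the alternatives run on genes. Single probe sets did differ in sign from the one used. In lung this held for Grik2 (-0.19) and Homer1 (-0.17 at the lowest), and for the difference between organs for Homer2 (-0.31). Array weights called 9.34% of all genes in cerebellum, against 4.80%, and without B50 2.90% were called. No paired analysis was possible because no replicate number is shared between groups. Signals near the olfactory level limit what can be said of the NMDA and metabotropic receptors in lung.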

Other observations

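Within dexamethasone cerebella, 4 members had an SD above 0.5 (Grik1, Grid1, Grm7 and Grm8), where the median SD of the members was 0.23. They were picked after their values were seen and carry no test. Grm7, a presynaptic receptor, had 9.94 on B39 and 9.72 on B50, against 9.04 on B49 and 8.46 on B52. Grik1, a kainate subunit, had 8.37 and 7.61 on B39 and B50, against 6.62 and 6.25 on B49 and B52. Grid1 and Grm8 had the same order of these pairs. On the same arrays the mean of general neuronal genes was 12.22 and 11.98 on B39 and B50, against 11.81 and 11.70 on B49 and B52, and that of Purkinje cell genes 11.33 and 11.38, against 11.75 and 12.04. Other lists of cerebellar cells differed between these pairs too. Granule neuron genes had 10.65 and 10.60 on B39 and B50, against 10.97 and 11.22 on B49 and B52. For granule neuron progenitors the values were 9.71 and 10.11, against 10.40 and 10.52. Inhibitory interneuron genes had 9.84 and 9.87, against 9.67 and 9.58, and oligodendrocyte genes 11.44 and 11.16, against 10.96 and 10.92. The part of these lists in the spread was not tested.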
